A study of Mus musculus with 3 samples.

Results

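Among the bone-lining cells (BLCs) of the mouse endosteum, a small set carries the transcripts of Mfap4, Tnmd and Scx, genes best known from tendon and ligament. These cells were chosen by a rule on counts of unique molecular identifiers (UMIs, each standing for 1 captured transcript). A kept barcode had at least 200 genes and at most 20% of its UMIs from mitochondrial genes. It entered the gate with at least 3 UMIs in the sum of 6 genes (Mfap4, Tnmd, Kera, Chodl, Ptx4 and Scx), fewer than 10 Cxcl12 UMIs, under 5% of its UMIs from Col1a1 and no Ptprc UMI. The rule took 328 of the 19482 kept barcodes, 88, 128 and 112 in replicates 1, 2 and 3. Since the counts of these 9 genes chose the cells, their levels are given below as a description, and so is the size of the gate.

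The 3 droplet single-cell RNA-seq libraries form 1 group of Alcam+Sca-1- BLCs from wild-type (WT) mice, labelled as bone marrow. After marrow flushing, fragments of femur, tibia and ilium were treated with collagenase, and Alcam+ cells lacking Sca-1 and the blood and endothelial antigens (CD45-, Ter119-, CD31-) were sorted. The labels give no age, sex, treatment, batch or animal number, and every comparison below is between cells of the same libraries. Nothing in the labels says which animals each library came from. A p-value measures only how much the differences between sets of cells vary over these 3 libraries.

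Tendon cells build parallel collagen fibrils, whose assembly is tuned by small leucine-rich proteoglycans, thrombospondins and fibril-associated collagens. Scx is the helix-loop-helix factor that marks tendon progenitors, Mkx is a homeobox factor that keeps tendon cells from other skeletal fates, and Tnmd is a membrane glycoprotein of mature tendon. Mfap4 is a microfibril-associated glycoprotein that binds integrins through an arginine-glycine-aspartate (RGD) motif. Itga8 codes for integrin α8, which pairs with integrin β1 (Itgb1) to bind RGD ligands such as nephronectin (Npnt), and it was not used in the rule.

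In GENCODE vM21 (build GRCm38, the same assembly as mm10) Mfap4 is at chr11:61485431-61488900, Tnmd at chrX:133850980-133865577, Kera at chr10:97606879-97613692, Chodl at chr16:78930948-78951733, Ptx4 at chr17:25120760-25125292 and Scx at chr15:76457452-76459458, all on the plus strand. Itga8 is at chr2:12106632-12301922 on the minus strand. All 7 are protein-coding.

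Promoter sequences are shown for genes whose transcripts were found together in these cells, as context for Scx, which like other helix-loop-helix factors binds the E-box CANNTG. RefSeq (GRCm38.p6) held the promoter of 4 of the 7 genes (Tnmd, Kera, Chodl and Itga8), and 3 of those windows lay before the GENCODE start of the gene and are printed, 5′ to 3′ on the strand of the gene, with each E-box in capitals.
Tnmd, chrX:133850758-133850979, plus strand: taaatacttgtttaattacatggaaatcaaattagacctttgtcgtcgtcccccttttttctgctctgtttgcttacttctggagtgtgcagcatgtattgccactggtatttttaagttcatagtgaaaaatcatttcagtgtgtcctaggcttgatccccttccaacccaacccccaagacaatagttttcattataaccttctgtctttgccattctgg
Chodl, chr16:78930698-78930947, plus strand: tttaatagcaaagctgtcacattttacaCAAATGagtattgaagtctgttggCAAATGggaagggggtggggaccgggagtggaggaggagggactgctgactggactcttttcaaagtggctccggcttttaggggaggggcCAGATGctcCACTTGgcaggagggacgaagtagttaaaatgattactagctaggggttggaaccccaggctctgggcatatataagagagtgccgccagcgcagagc
Itga8, chr2:12301945-12302194, minus strand: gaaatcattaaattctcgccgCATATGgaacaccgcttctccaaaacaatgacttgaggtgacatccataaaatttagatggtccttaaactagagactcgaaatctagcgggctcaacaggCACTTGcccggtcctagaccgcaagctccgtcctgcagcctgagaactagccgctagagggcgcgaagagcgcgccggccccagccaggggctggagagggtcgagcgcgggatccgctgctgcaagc
The 222 bases of Tnmd held 0 E-boxes, the 250 bases of Chodl held 4, and the 250 bases of Itga8 held 2. CANNTG reads the same on both strands, and it occurred in 66.2% of all 32851 RefSeq windows of 250 bases and in 62.4% of the windows of 222 bases. The form CATCTG, searched on both strands and itself a case of CANNTG, was found in Chodl only among these 3 windows, as its reverse complement CAGATG, and in 14.4% of all windows of 250 bases. These matches describe the letters and are not binding sites.

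The libraries held 20307 barcodes, of which 2527, 6725 and 10230 were kept in replicates 1, 2 and 3. Median depth in the kept barcodes was 5663, 10034 and 5995 UMIs, and in the gated cells it was 6125, 8847 and 5277 UMIs. The gated cells together gave 572292, 1488060 and 705332 UMIs. Replicate 1 stood apart from the other two in its make-up: cells with at least 3 UMIs of the cartilage proteoglycan gene Acan were 18.7% of its other kept cells against 77.6% and 74.0% in replicates 2 and 3. 5, 9 and 28 barcodes were shared between replicates 1 and 2, 1 and 3, and 2 and 3, and in no pair was a shared barcode in the gate of both libraries.

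Of the kept barcodes, 3.48% were gated in replicate 1, with an exact binomial interval (95%) from 2.80 to 4.27%. The share was 1.90% in replicate 2 (1.59 to 2.26%) and 1.09% in replicate 3 (0.902 to 1.32%), and over the libraries 2.16 ± 1.21% (SD, n = 3). Intervals here and below cover counting error only. The share was lower in libraries with more kept barcodes, and the intervals of the 3 libraries do not overlap.

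The gated cells held most of the transcripts of the genes that chose them. Of all UMIs of the 6 genes in kept barcodes, 90.0%, 86.1% and 77.5% lay in the gate in replicates 1, 2 and 3. Tnmd, the membrane glycoprotein, was at 1138, 689 and 769.9 CPM (the UMIs of a gene in the summed cells, scaled to a fixed total of all their UMIs) and was seen in 86.4%, 68.8% and 72.3% of the gated cells. Mfap4 was at 799, 374 and 549 CPM and in 67.0%, 53.1% and 53.6% of cells. Chodl, which codes for the lectin-like membrane protein chondrolectin, was at 539.9, 233 and 261 CPM, and the pentraxin gene Ptx4 at 580.1, 187 and 177 CPM. Kera, coding for the proteoglycan keratocan, was at 76.9, 126 and 143 CPM. These are levels of different genes counted at the 3′ end, so no order among genes is read from them.

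Scx was the least confined to the gate in replicates 2 and 3. It was at 271, 190 and 180.1 CPM in the gate, but the gate held only 74.2%, 47.6% and 31.0% of the Scx UMIs of each library, whereas it held at least 88.6% of the UMIs of Mfap4, Tnmd, Chodl and Ptx4 in every library. For Kera the gate held 60.3%, 98.4% and 97.1%. 1, 27 and 13 cells entered the gate by Scx UMIs alone in replicates 1, 2 and 3. Most cells carried several of the genes: 17 carried all 6, 58 carried 5, 51 carried 4, 47 carried 3, 65 carried 2 and 90 carried 1. Of these 90, only 9 were in replicate 1.

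Markers of other cell types were set beside the label of a tendon-like cell, and some of the gated cells carried cartilage markers at high levels. In replicate 1, 0 of 88 gated cells had 3 or more Acan UMIs. In replicates 2 and 3, 52 of 128 cells (40.6%) and 37 of 112 cells (33.0%) did. These 89 cells were deep, with a median of 16692 and 8490 UMIs in replicates 2 and 3, and had a median of 4 UMIs of the 6 rule genes in both libraries, near the threshold of 3. They had entered by Scx UMIs alone in 24 and 12 cases. Summed over 5 chondrocyte markers (Acan, Col2a1, Sox9, Col9a1 and Matn3), they were at 40479.6 and 31944.5 CPM in replicates 2 and 3, against 33769 and 28661 CPM in the cells outside the gate. Col2a1, the main cartilage collagen, was at 32971 and 26506 CPM in them. The doublet score marked 15.4% and 37.8% of them in replicates 2 and 3, against 0% and 2.67% of the other gated cells there. It marked 5.38% and 8.18% of all kept barcodes in these libraries.

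**Figure D1:**
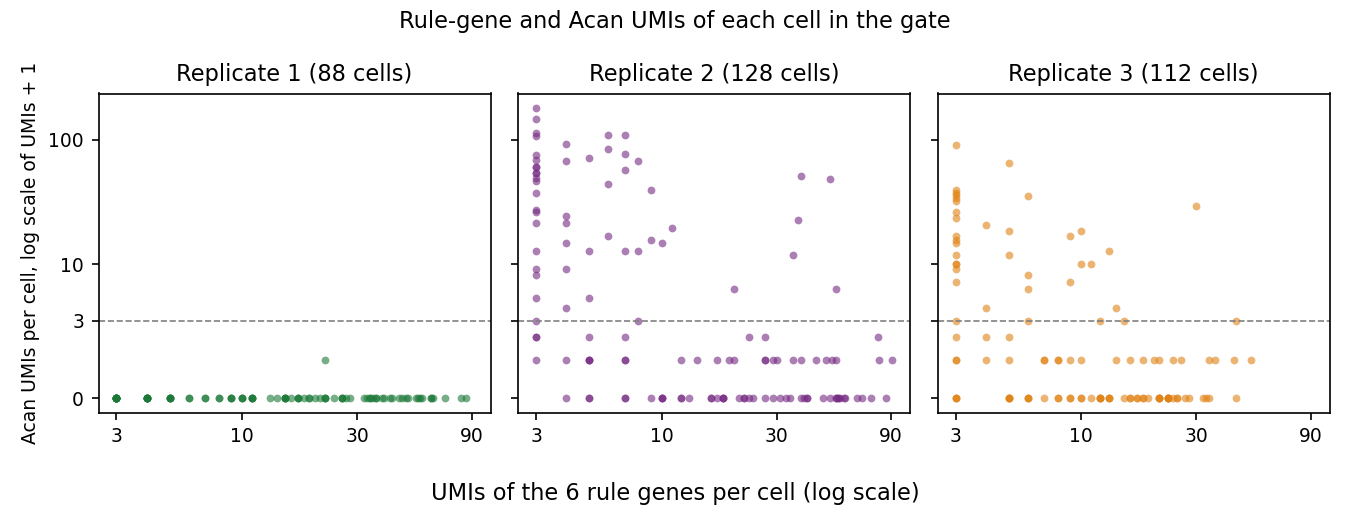
Each point is 1 gated cell, with its UMIs of the 6 rule genes on the horizontal axis (log scale) and its Acan UMIs on the vertical axis (log scale of UMIs + 1), in 1 panel per replicate. Cells on or above the dashed line have 3 or more Acan UMIs: 0 of 88 in replicate 1, 52 of 128 in replicate 2 and 37 of 112 in replicate 3, most of them at the left with few rule-gene UMIs.

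The 239 gated cells with fewer than 3 Acan UMIs (88, 76 and 75 cells) carried the tendon-like markers at close levels in the 3 libraries. This division by Acan was made after the counts had been seen, so its levels are given with no test. Their summed level of the 6 tendon-like markers outside the rule (Aspn, Itgbl1, Sfrp2, Mkx, Fmod and Thbs4) was 14603, 13081 and 11104 CPM in replicates 1, 2 and 3, against 653, 1407 and 1443 CPM in all cells outside the gate. All 10 listed tendon-like markers were detected. The list was chosen with earlier results of these data known, so these levels describe the cells and are not independent evidence for the label. Thbs4, a thrombospondin of tendon matrix, was at 6799, 5586 and 4208 CPM, and Fmod, which codes for the fibril-binding proteoglycan fibromodulin, was at 3252, 3229 and 3055 CPM. Aspn, coding for the proteoglycan asporin, was at 2119.6, 2088 and 1869 CPM, and Itgbl1, coding for a secreted integrin β-like protein, was at 1702, 1687 and 1442 CPM. Sfrp2, a secreted Wnt modulator, was at 505, 323 and 359 CPM, and the transcription factor gene Mkx at 225, 168 and 171 CPM. In the cells with 3 or more Acan UMIs, the same 6 markers summed to 2742 and 3699 CPM in replicates 2 and 3, with Mkx at 21.6 and 5.47 CPM.

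**Figure D2:**
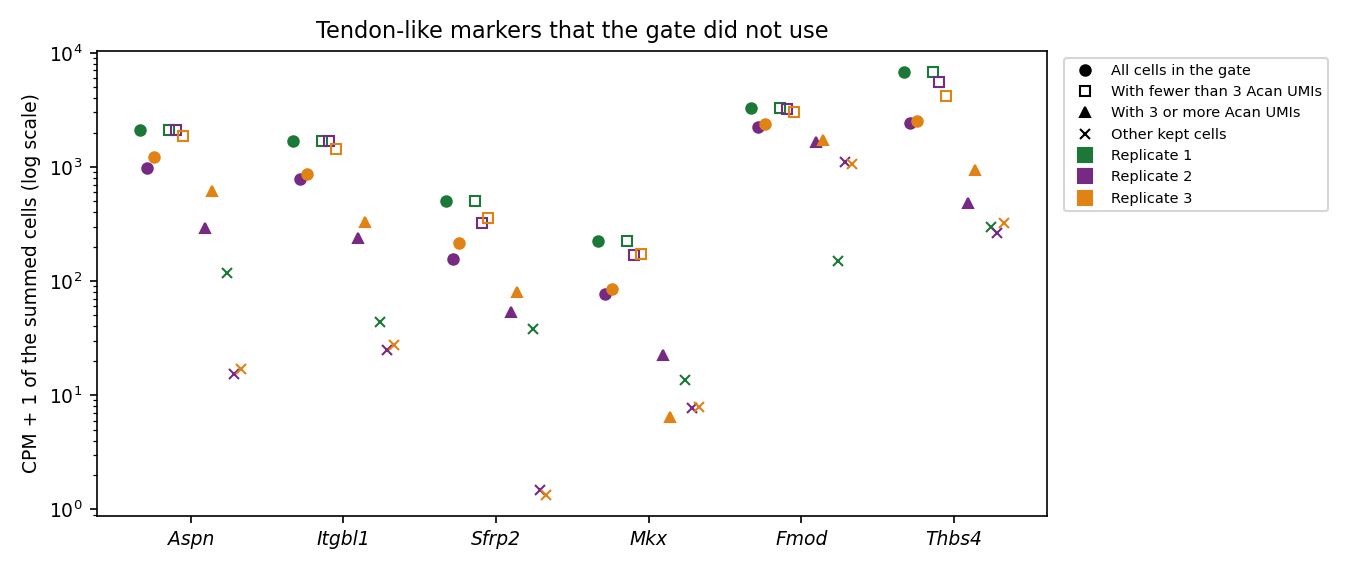
CPM + 1 of the summed cells (log scale) for 6 tendon-like markers that the rule did not use, by library (colours) and set of cells (symbols). The gated cells with fewer than 3 Acan UMIs (open squares) lie close together in the 3 replicates, for Aspn at 2119.6, 2088 and 1869 CPM, and those with 3 or more (triangles, replicates 2 and 3 only) lie lower for all 6 genes.

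Summed markers of other cell types in the gated cells with fewer than 3 Acan UMIs lay on both sides of those in the cells outside the gate. The 5 chondrocyte markers summed to 71.6, 1020.9 and 1522 CPM, against 991, 33769 and 28661 CPM outside, with Acan, one of the 5, used to choose this set. The 5 osteoblast markers (Bglap, Sp7, Ibsp, Ifitm5 and Dmp1) summed to 868, 437 and 371 CPM, below the 2873, 7908 and 9451 CPM of the cells outside the gate. The 6 markers of Cxcl12-abundant reticular (CAR) cells summed to 269, 146 and 215 CPM, against 4454, 372 and 328 CPM. The 5 fibroblast markers (Cd34, Pi16, Igfbp6, Dpt and Clec3b) summed to 1412, 2015 and 2163 CPM, nearly all of it Igfbp6 at 1293, 1881 and 2107 CPM, and were higher than the 213, 107 and 131 CPM outside. The 5 mural markers (Acta2, Myh11, Tagln, Rgs5 and Notch3) summed to 383, 180.3 and 135 CPM, against 404, 30.3 and 27.3 CPM outside, with Rgs5 at 0. The part of these markers in the results below was not tested. Leukocyte markers summed to 6.99, 7.14 and 8.83 CPM with Ptprc at 0, as the rule sets it. The 3 erythroid markers were at 694 CPM in replicate 1 and at 7.14 and 14.7 CPM in the others. Endothelial, Schwann and skeletal muscle markers summed to 48.9 CPM or less, with Emcn, Sox10 and Myh4 at 0 in all libraries. Alcam, the transcript of the sorted antigen, was at 94.4, 12.8 and 12.8 CPM in all gated cells of replicates 1, 2 and 3, and Ly6a, the gene for Sca-1, at 5.24, 4.70 and 4.25 CPM.

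The threshold cut through different cells in different libraries. In replicate 1, the 10 cells just inside it, with a sum of 3, had Aspn at 1946 CPM and Acan at 0, and the 18 cells just outside it, with a sum of 2, had Aspn at 1059.8 CPM and Acan at 999 CPM. In replicate 2, the 24 cells just inside had Aspn at 179 CPM and Acan at 2849.7 CPM, and the 66 just outside had Aspn at 53.7 CPM and Acan at 2615 CPM. In replicate 3, the 23 inside were at 306 and 2012 CPM for the same genes and the 51 outside at 81.0 and 2306 CPM.

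To place the gated cells among the other soft tissue and stromal cells of the sort, they were compared with 3 other gates of kept barcodes that had fewer than 3 UMIs of the 6 genes and no Ptprc UMI. The Cd34 Igfbp6 gate (at least 1 Cd34 and 2 Igfbp6 UMIs and no Pecam1 UMI) held 55, 86 and 121 cells, the Cilp-high gate (at least 10 Cilp UMIs) 468, 1340 and 2264 cells, and the Cxcl12-abundant gate (at least 10 Cxcl12 UMIs) 618, 95 and 125 cells in replicates 1, 2 and 3. The Cd34 Igfbp6 gate had little of the fibroblast marker Pi16 (8.39, 2.83 and 4.09 CPM) and much of the cartilage and tendon gene Comp (3507, 7380.2 and 8143 CPM), so it is called by its rule. Cells with 3 or more Acan UMIs were 3.64%, 31.4% and 28.1% of the Cd34 Igfbp6 gate, 65.8%, 78.1% and 74.7% of the Cilp-high gate and 2.75%, 10.5% and 7.20% of the Cxcl12-abundant gate. Counts were summed per gate and library and tested with edgeR's quasi-likelihood test with the library as a block, and a gene was called at an adjusted p (Benjamini-Hochberg over all genes tested) under 0.05. All gated cells entered, those with Acan included. The gates were split by the sum of the 6 rule genes. The direction of genes that go with these is therefore not independent evidence in any comparison below. How much of it the split set was not tested.

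Against the Cd34 Igfbp6 gate, 160 of 8915 genes (1.79%) were higher in the Mfap4 Tnmd Scx gate and 130 (1.46%) lower. Against the Cilp-high gate, 911 of 8914 genes (10.2%) were higher and 692 (7.76%) lower, and against the Cxcl12-abundant gate 1095 of 8918 (12.3%) were higher and 1215 (13.6%) lower. The genes of either gate's own rule are not in these counts. The shares of all genes called rise from the first comparison to the third, and the counts of the lists below are to be read against them. The first comparison depended most on the libraries: it called 290 genes in all, 516 without replicate 1, 35 without replicate 2 and 101 without replicate 3, and 164 with no block for the library. The second called 1603 genes, 784 without replicate 2 and 783 without replicate 3, and the third 2310 genes, 1093 without replicate 2 and 1335 without replicate 3. Of the 36 listed or named genes called against the Cd34 Igfbp6 gate, 35, 12 and 21 kept their call without replicates 1, 2 and 3. These numbers were 70, 41 and 49 of 74 against the Cilp-high gate and 99, 74 and 85 of 103 against the Cxcl12-abundant gate, and none of those that could be fitted changed direction when a library was left out.

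More genes of the tendon program were higher than lower in the Mfap4 Tnmd Scx gate against each of the other gates. Of 15 tested genes of the list outside the rule, 6 were higher and 1 lower against the Cd34 Igfbp6 gate (median log2 fold change 1.03, against -0.01 for all genes). 9 were higher and 2 lower against the Cilp-high gate (median 1.07, against -0.02 for all genes), and 11 were higher and 1 lower against the Cxcl12-abundant gate (median 2.08, against -0.02). The shares of all genes were 1.79%, 10.2% and 12.3% higher and 1.46%, 7.76% and 13.6% lower, in the same order. Aspn, Itgbl1, Mkx, Thbs2, Thbs4 and Col12a1 were higher in all 3 comparisons. The list holds genes already known to mark these cells in these data, so its direction is not independent evidence.

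Mkx was the tendon transcription factor outside the rule that was called in every comparison. It was at 225, 76.6 and 85.1 CPM in the gated cells, at 36.4, 18.4 and 13.6 CPM in the Cd34 Igfbp6 gate, at 9.07, 7.095 and 8.87 CPM in the Cilp-high gate and at 25.5, 41.8 and 46.7 CPM in the Cxcl12-abundant gate. The gated cells did not overlap any of these gates. The log2 fold change was 2.44 ± 0.43 (SE, adjusted p = 0.00793, edgeR), 3.44 ± 0.36 (adjusted p = 5.72e-05) and 1.82 ± 0.38 (adjusted p = 0.00397) in the same order. The early-response factors Egr1 and Egr2, which also act in tendon, were not called in any of the 3 comparisons, with log2 fold changes between -0.69 and 0.57.

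Among the matrix genes of tendon, the thrombospondins differed in direction. Thbs4 was at 6799, 2406 and 2517 CPM in the gated cells and at 47.7, 32.0 and 63.5 CPM in the Cxcl12-abundant gate, a log2 fold change of 6.33 ± 0.35 (adjusted p = 5.70e-07, edgeR), and it was higher by 1.13 ± 0.27 than in the Cd34 Igfbp6 gate (adjusted p = 0.0454). Thbs2 was higher by 2.88 ± 0.24, 3.43 ± 0.21 and 2.11 ± 0.21 than in the Cd34 Igfbp6, Cilp-high and Cxcl12-abundant gates. Comp, the thrombospondin that is also abundant in cartilage, was at 1592, 3687 and 3789.7 CPM in the gated cells. It was lower than in the Cd34 Igfbp6 gate (log2 fold change -1.13 ± 0.19, adjusted p = 0.00702) and the Cilp-high gate (-1.12 ± 0.19, adjusted p = 0.00188), and higher than in the Cxcl12-abundant gate (2.08 ± 0.20, adjusted p = 1.88e-05). Col12a1, a fibril-associated collagen of tendon, was at 1407, 1142 and 977 CPM and higher than in each gate by between 2.31 and 2.69 on the log2 scale. Tnc, coding for the matrix glycoprotein tenascin C, was at 87.4, 69.2 and 73.7 CPM in the gated cells and at 1064, 887 and 1275 CPM in the Cxcl12-abundant gate (log2 fold change -3.75 ± 0.22, adjusted p = 7.63e-07).

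Microfibril and elastic fibre genes, the group to which Mfap4 belongs, were spread over both directions. Of 17 tested genes other than Mfap4, 5 were higher and 1 lower against the Cd34 Igfbp6 gate (median log2 fold change 0.54), 11 were higher and 0 lower against the Cilp-high gate (median 2.01), and 6 were higher and 4 lower against the Cxcl12-abundant gate (median 0.67). Among all genes, 1.79%, 10.2% and 12.3% were higher and 1.46%, 7.76% and 13.6% lower, in the same order. Mfap5, a second microfibril glycoprotein, was at 211, 106 and 102 CPM in the gated cells and at 0.302, 0.224 and 0.208 CPM in the Cilp-high gate (log2 fold change 8.47 ± 0.62, adjusted p = 4.07e-06, edgeR). In the Cd34 Igfbp6 gate it was at 207, 97.6 and 14.99 CPM, so the gates overlapped (0.66 ± 0.42, adjusted p = 0.56). Mfap2 was higher in all 3 comparisons, by 2.32 ± 0.46, 3.46 ± 0.38 and 1.24 ± 0.37. Fbln5, which helps elastic fibres form, was higher than in the Cd34 Igfbp6 gate (2.19 ± 0.34, adjusted p = 0.00416) and lower than in the Cxcl12-abundant gate (-2.80 ± 0.27, adjusted p = 2.20e-05), where it was at 589, 692 and 756 CPM. Fbn1, the main fibrillin gene, was not called in any comparison.

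**Figure D3:**
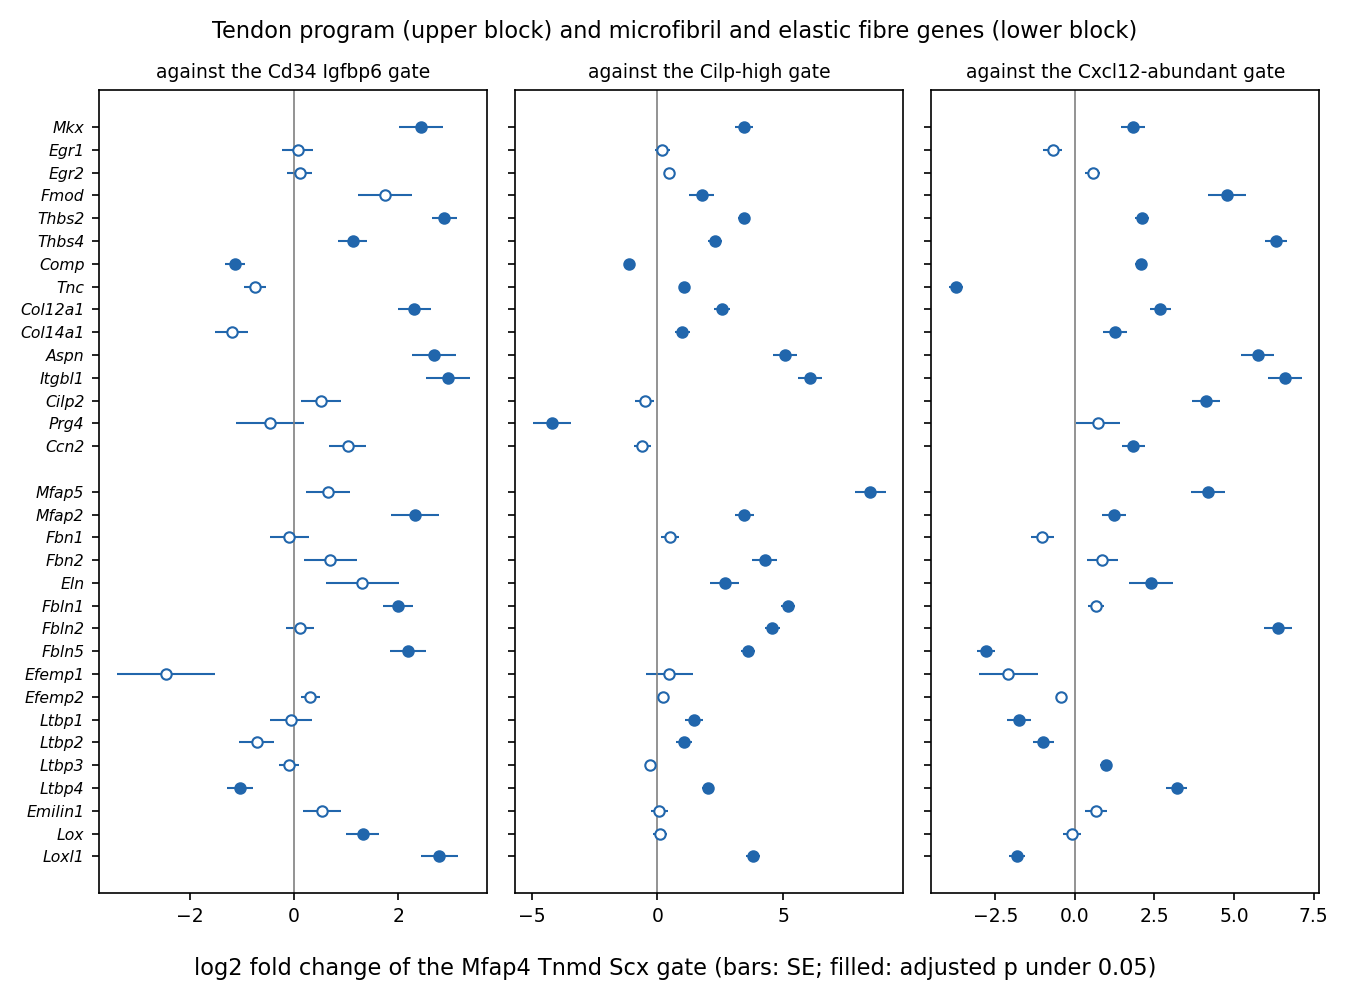
log2 fold changes of the Mfap4 Tnmd Scx gate against 3 other gates for the tendon program (upper block) and microfibril and elastic fibre genes (lower block) that were tested and are not in the rule. Bars are the SE, filled points have an adjusted p under 0.05, and the 3 panels have different horizontal scales. Aspn, Itgbl1, Mkx, Thbs2, Thbs4 and Col12a1 lie to the right of 0 and are filled in all 3 panels.

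The small leucine-rich proteoglycans, which coat collagen fibrils, were mostly higher than in the Cxcl12-abundant gate. Of 12 tested genes, 10 were higher and 1 lower in that comparison, where 12.3% and 13.6% of all genes were (median log2 fold change 2.11), 5 higher and 1 lower against the Cilp-high gate (10.2% and 7.76% of all genes, median 0.74) and 2 higher and 0 lower against the Cd34 Igfbp6 gate (1.79% and 1.46%, median 0.45). The difference between comparisons was not tested. Ogn, coding for osteoglycin, was at 2286, 813 and 889 CPM in the gated cells and at 86.7, 204 and 199 CPM in the Cd34 Igfbp6 gate (log2 fold change 2.97 ± 0.46, adjusted p = 0.00416, edgeR). Aspn was higher by 2.68 ± 0.42, 5.08 ± 0.46 and 5.75 ± 0.51 than in the Cd34 Igfbp6, Cilp-high and Cxcl12-abundant gates. Chad, which codes for the cartilage protein chondroadherin, was lower than in the Cilp-high gate (-2.03 ± 0.40, adjusted p = 0.00443) and higher than in the Cxcl12-abundant gate (2.01 ± 0.40, adjusted p = 0.00278). Dcn, coding for decorin, was at 13671, 5896 and 8742 CPM and was called only against the Cxcl12-abundant gate among the 3 comparisons (2.65 ± 0.40, adjusted p = 0.000522).

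Fibrillar and fibril-associated collagens were also mostly higher than in the Cxcl12-abundant gate. Of 15 tested genes outside the rule, 13 were higher and 1 lower against the Cxcl12-abundant gate (12.3% and 13.6% of all genes, median log2 fold change 1.60), 7 higher and 1 lower against the Cilp-high gate (10.2% and 7.76%, median 0.44) and 2 higher and 1 lower against the Cd34 Igfbp6 gate (1.79% and 1.46%, median -0.29). Col3a1 was at 736, 1441 and 1713 CPM in the gated cells and at 152, 188 and 162 CPM in the Cxcl12-abundant gate (2.90 ± 0.25, adjusted p = 9.41e-06, edgeR). Col8a1, a short-chain collagen, was higher than in each gate, by 1.69 ± 0.27, 3.55 ± 0.28 and 0.84 ± 0.26. Col15a1, a basement membrane collagen, was lower than in the Cd34 Igfbp6 gate (-2.06 ± 0.34, adjusted p = 0.00632). Col22a1, a collagen of tissue junctions listed with the osteoblast genes, was at 463, 157 and 129 CPM in the gated cells and at 2.80, 0 and 0 CPM in the Cd34 Igfbp6 gate, at 0.907, 3.36 and 2.63 CPM in the Cilp-high gate and at 1.28, 6.96 and 13.1 CPM in the Cxcl12-abundant gate. It was called in each comparison, by 8.44 ± 1.09, 5.97 ± 0.60 and 6.03 ± 0.75.

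Itga8 and Postn were higher in each comparison among the integrins and ligands around Itga8. Of 14 tested genes other than Mfap4, these 2 were higher against the Cd34 Igfbp6 gate (1.79% of all genes), 5 were higher and 1 lower against the Cilp-high gate (10.2% and 7.76%), and 5 were higher and 3 lower against the Cxcl12-abundant gate (12.3% and 13.6%), with medians of -0.18, 0.55 and 0.84 on the log2 scale. Postn, coding for the matrix protein periostin, was at 727, 697 and 656 CPM in the gated cells and at most 30.8 CPM in any library of the 3 other gates. Its log2 fold changes were 4.96 ± 0.49, 9.28 ± 0.57 and 5.53 ± 0.49 (adjusted p = 0.000234, 9.67e-07 and 1.09e-05, edgeR). Itgb1, the partner chain of Itga8, was at 725, 409 and 374 CPM and was not called in any comparison. Npnt was higher than in the Cilp-high gate (2.87 ± 0.34, adjusted p = 0.00013) and the Cxcl12-abundant gate (1.76 ± 0.38, adjusted p = 0.00519) at a level of 12.2, 35.6 and 45.4 CPM. Itgav was lower than in the Cxcl12-abundant gate (-0.88 ± 0.20, adjusted p = 0.00601). Of 5 tested collagen-binding receptors, 0, 1 and 1 were higher and 0, 0 and 2 lower in the 3 comparisons, and against the Cd34 Igfbp6 gate 1 of the 5 had an unadjusted edgeR p under 0.05 and 1 was called by DESeq2. Itga11, a collagen-binding integrin chain, was at 73.4, 24.2 and 24.1 CPM in the gated cells and at 8.17, 8.22 and 9.91 CPM in the Cilp-high gate (1.63 ± 0.37, adjusted p = 0.00991).

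Factors that support blood stem cells were lower than in the Cxcl12-abundant gate. Of 9 tested genes outside the rule, 8 were lower and 0 higher there, where 13.6% and 12.3% of all genes were. Their median log2 fold change was -4.47. Cxcl12 counts helped to choose the cells of each gate: the Mfap4 Tnmd Scx gate left out cells high in Cxcl12, and the Cxcl12-abundant gate required them. The direction of genes that go with Cxcl12 is therefore not independent evidence, and how much of it the gates set was not tested. Kitl, coding for stem cell factor, was at 13.98, 4.03 and 2.84 CPM in the gated cells and at 1919, 1339 and 1290.1 CPM in the Cxcl12-abundant gate (-7.98 ± 0.47, adjusted p = 7.63e-07, edgeR). Lepr, the leptin receptor, was at 92.6, 14.1 and 26.9 CPM against 1319, 851 and 919 CPM (-4.83 ± 0.35, adjusted p = 3.43e-06). Igf1, a growth factor, was the exception: it was at 383, 177 and 281 CPM in the gated cells and at 339, 258 and 286 CPM in the Cxcl12-abundant gate (-0.05 ± 0.44, adjusted p = 0.956). It was higher than in the Cd34 Igfbp6 gate (2.52 ± 0.52, adjusted p = 0.0192) and the Cilp-high gate (5.58 ± 0.54, adjusted p = 3.55e-05). Against these 2 gates, 1 and 3 of the 9 genes were higher and 0 were lower. Among all genes, 1.79% and 10.2% were higher and 1.46% and 7.76% lower there.

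Secreted Wnt and BMP modulators went both ways. Of 14 tested genes, 1 was higher against the Cd34 Igfbp6 gate, 6 were higher and 2 lower against the Cilp-high gate, and 4 were higher and 8 lower against the Cxcl12-abundant gate (medians 0.51, 0.39 and -2.24). Among all genes, 1.79%, 10.2% and 12.3% were higher and 1.46%, 7.76% and 13.6% lower in these comparisons. Sfrp2 was the gene higher in all 3 comparisons. It was at 505, 155 and 214 CPM in the gated cells and at no more than 18.1 CPM in any library of the other 3 gates, with log2 fold changes of 6.64 ± 0.73, 8.08 ± 0.59 and 5.62 ± 0.60 (adjusted p = 0.00056, 4.02e-06 and 4.15e-05, edgeR). Grem1, which codes for the BMP antagonist gremlin 1, was at 31.5, 18.8 and 26.9 CPM, and at 706, 336 and 493 CPM in the Cxcl12-abundant gate (-4.38 ± 0.56, adjusted p = 0.000166).

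Cartilage and osteoblast genes were measured with the same fits. These called 1.79%, 10.2% and 12.3% of all genes higher and 1.46%, 7.76% and 13.6% lower, in the order of comparisons used above. Of 11 tested cartilage genes, 0 were called by edgeR or DESeq2 against the Cd34 Igfbp6 gate (2 at an unadjusted p under 0.05), 1 was higher and 2 lower against the Cilp-high gate, and 3 were higher against the Cxcl12-abundant gate. Acan was at 1.75, 1593 and 1056 CPM in the gated cells, far apart between replicate 1 and the other libraries, and was not called in any of the 3 comparisons. Cytl1, a secreted protein of cartilage, was lower than in the Cilp-high gate (-4.36 ± 0.91, adjusted p = 0.00623, edgeR). Of 9 tested osteoblast genes, 3, 4 and 2 were higher and 1, 2 and 4 lower in the 3 comparisons. Cdh11, an adhesion molecule of mesenchymal cells, was at 297, 129 and 155 CPM, higher than in the Cd34 Igfbp6 gate (0.91 ± 0.19, adjusted p = 0.023) and the Cilp-high gate (3.76 ± 0.20, adjusted p = 3.83e-07) and lower than in the Cxcl12-abundant gate (-1.83 ± 0.18, adjusted p = 2.61e-05). Bglap2 was higher in all 3, but it is nearly identical to Bglap in sequence and the split of reads between them is uncertain. With at least 5 UMIs of the 6 rule genes its log2 fold change against the Cxcl12-abundant gate was -0.12. Ibsp, coding for bone sialoprotein, was lower than in the Cilp-high gate (-1.82 ± 0.56, adjusted p = 0.0425) and the Cxcl12-abundant gate (-2.20 ± 0.55, adjusted p = 0.0115).

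Fibroblast, mural and patterning genes gave smaller counts. The shares of all genes were again 1.79%, 10.2% and 12.3% higher and 1.46%, 7.76% and 13.6% lower. Counts near these shares are not read as a result. Of the tested fibroblast genes, 1 of 7 was higher and 3 lower against the Cd34 Igfbp6 gate, 2 of 7 higher and 1 lower against the Cilp-high gate and 3 of 9 higher and 1 lower against the Cxcl12-abundant gate. Fndc1, coding for a fibronectin-domain protein, was higher in all 3, by 2.34 ± 0.18, 4.98 ± 0.19 and 3.41 ± 0.19, at 465, 190.2 and 186 CPM in the gated cells. Gsn, the actin-severing protein gelsolin, was lower than in the Cd34 Igfbp6 gate (-2.21 ± 0.30, adjusted p = 0.00184, edgeR). Of 6 tested mural genes, 1, 3 and 3 were higher and 0, 0 and 2 lower in the 3 comparisons, and Acta2, smooth muscle actin, was higher in each, at 157, 45.02 and 25.5 CPM in the gated cells (log2 fold changes 5.37 ± 1.21, 4.67 ± 0.73 and 6.92 ± 1.17). Of 12 tested limb patterning genes, 0, 2 and 2 were higher and 1, 2 and 0 lower. Of 12 genes that respond to tissue dissociation, 0 were called against the Cd34 Igfbp6 gate by edgeR or DESeq2 (1 at an unadjusted p under 0.05), and 1 was lower in each of the other comparisons, Ier3 against the Cilp-high gate and Junb against the Cxcl12-abundant gate. Lists of other cell types had few tested members: 1 leukocyte gene (Cd74) of 3 and the endothelial gene Pecam1 were lower against the Cxcl12-abundant gate, the Schwann cell gene S100b was lower against the Cilp-high gate, and the 1 tested erythroid and 1 tested skeletal muscle gene were not called. Hbb-bs, a haemoglobin gene, was at 400.1 CPM in the gated cells of replicate 1 and at 4.03 and 4.25 CPM in the others, and its part in any result was not tested.

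Beyond the lists, the genes with the largest changes in all 3 libraries were drawn from the called genes at 100 CPM or more in the higher gate. Against the Cd34 Igfbp6 gate, Cpxm1, coding for a carboxypeptidase-like protein, was at 302, 122 and 211 CPM against 28.0, 26.9 and 10.9 CPM (log2 fold change 3.15 ± 0.34, adjusted p = 0.00056, edgeR). Ptprd, a receptor phosphatase gene, was at 870.2, 309 and 373 CPM against 89.5, 36.8 and 58.6 CPM (2.95 ± 0.28, adjusted p = 0.000168). The genes drawn as lowest there were Cox4i2, a respiratory chain subunit (-2.84 ± 0.36), Rerg (-2.64 ± 0.33), the IGF-binding protein gene Igfbp5 (-2.64 ± 0.39), Plat, tissue plasminogen activator (-2.42 ± 0.28), and Gsn. Igfbp5 was at 271, 149 and 454 CPM in the gated cells and at 2674, 1434 and 1298 CPM in the Cd34 Igfbp6 gate.

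Against the Cilp-high gate, the highest genes were Postn, Mfap5, Sfrp2, Itgbl1, Cpxm1, Col22a1, the apolipoprotein gene Apod and Igf1, with log2 fold changes from 5.58 for Igf1 to 9.28 for Postn. Apod was at 1805, 319 and 508 CPM in the gated cells and at 50.2, 3.73 and 5.34 CPM in the Cilp-high gate (5.65 ± 1.17, adjusted p = 0.00583, edgeR). The lowest were Msmp (-7.46 ± 0.97), Cd14 (-4.96 ± 0.81), Cytl1, Prg4 and Clu (-3.60 ± 0.36). Prg4, coding for the joint lubricant lubricin, was at 111623, 67610 and 78390 CPM in the Cilp-high gate and at 1165, 7863 and 13823 CPM in the Mfap4 Tnmd Scx gate (-4.20 ± 0.77, adjusted p = 0.00264). In the gated cells with fewer than 3 Acan UMIs, Prg4 was at 1165, 1408 and 1642 CPM.

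Against the Cxcl12-abundant gate, the highest genes were the angiopoietin-like gene Angptl7 (8.86 ± 0.81), Cpxm2, Itgbl1, Igfbp6, Thbs4, Col22a1, Myoc and Aspn. Angptl7 was at 2434, 1543 and 2151 CPM in the gated cells and at 0.766, 18.1 and 1.87 CPM in the Cxcl12-abundant gate. Myoc, coding for the secreted protein myocilin, was at 679.7, 115 and 695 CPM against 6.38, 13.9 and 5.60 CPM (5.86 ± 0.68, adjusted p = 7.94e-05, edgeR). The lowest were Esm1, Kng1, Serpina3g, Hp and the adipokine gene Adipoq. Esm1, Kng1 and Serpina3g had 0 UMIs in the gated cells of all 3 libraries. With a floor of 3 counts per library they were at least 104-fold, 45.1-fold and 36.0-fold lower. Hp, haptoglobin, was at 10.5, 0.672 and 1.42 CPM against 4275, 6863 and 4976 CPM (-10.82 ± 0.83, adjusted p = 4.63e-06).

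Itga8, whose product marks the lining cells that the study followed, was higher in the Mfap4 Tnmd Scx gate than in each of the 3 gates. It gave 66, 57 and 22 UMIs in the gated cells of replicates 1, 2 and 3, which is 115, 38.3 and 31.2 CPM (exact 95% Poisson intervals 89.2 to 147, 29.0 to 49.6 and 19.5 to 47.2 CPM). The Cd34 Igfbp6 gate was at 0, 2.83 and 5.45 CPM, the Cilp-high gate at 1.21, 1.64 and 1.94 CPM, and the Cxcl12-abundant gate at 7.66, 12.5 and 5.60 CPM. No library of these gates reached the lowest library of the gated cells. The log2 fold changes were 3.92 ± 0.67 (adjusted p = 0.00702, edgeR), 4.55 ± 0.47 (adjusted p = 5.38e-05) and 2.91 ± 0.51 (adjusted p = 0.00131). Without replicate 2 the call against the Cd34 Igfbp6 gate was lost (4.04, adjusted p = 0.0874), and over all alternatives run its adjusted p lay between 3.56e-12 and 0.0874. Itga8 and Mfap4 were already known from the study's work on these cells, so this is not independent evidence.

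The mean of Itga8 over the 3 libraries was 61.6 ± 46.7 CPM (SD, n = 3), 34.7 CPM without replicate 1, and 87.0 ± 31.6 CPM in the gated cells with fewer than 3 Acan UMIs. Those cells were at 115, 92.8 and 53.0 CPM, and the cells with 3 or more Acan UMIs at 5.39 and 10.9 CPM in replicates 2 and 3, from 5 and 4 UMIs. An Itga8 UMI was seen in 44.3%, 23.4% and 19.6% of all gated cells (exact 95% binomial intervals 33.7 to 55.3%, 16.4 to 31.7% and 12.7 to 28.2%). As a background, cells with a Ptprc UMI showed an Itga8 UMI in 0.690%, 1.67% and 2.51% of cells at median depths of 21485, 20266 and 11580 UMIs. Of these cells, 1.38%, 9.17% and 17.6% had 3 or more Acan UMIs, so the set may not be leukocytes only. At 1000 UMIs drawn from each cell, the expected share was 11.8%, 5.12% and 4.04% in the gate and 0.0572%, 0.0647% and 0.259% in the cells with a Ptprc UMI. 1 gated cell of replicate 1 and 2, 0 and 3 cells with a Ptprc UMI were too shallow for this.

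Within the gate, Itga8 had no order along the number of rule-gene UMIs that held in every library, and that number is what the rule used. From the lowest to the highest of 5 ranges of that number (3, 4 to 5, 6 to 10, 11 to 20, and 21 or more), Itga8 was at 184, 38.8, 48.9, 124 and 144 CPM in replicate 1. In replicate 2 it was at 2.43, 0, 17.8, 8.29 and 118 CPM, and in replicate 3 at 0, 10.98, 37.1, 49.8 and 68.4 CPM. Only in replicate 3 was each range above the one before. The range of 21 or more had the highest level in replicates 2 and 3, and the range at exactly 3 had it in replicate 1, from 7 UMIs. Just outside the gate, at a sum of 2, Itga8 was at 98.4, 13.2 and 12.5 CPM from 13, 14 and 6 UMIs. In replicates 2 and 3 this is above the value just inside. That value rests on 1 and 0 UMIs, so no order is read from it.

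Among the gated cells with fewer than 3 Acan UMIs, an Itga8 UMI was seen in 54.2%, 40.7% and 25.5% of cells with an Mfap4 UMI in replicates 1, 2 and 3, and in 24.1%, 22.7% and 21.4% of those without. For Tnmd the shares were 48.7%, 40.3% and 24.6% against 16.7%, 0% and 21.4%. In replicate 3 the shares for both genes were close. For Scx they were 63.0%, 38.6% and 21.4% against 23.8%, 31.2% and 25.5%, and for Kera 25.0%, 38.5% and 38.1% against 47.4%, 34.0% and 18.5%, so neither gene had the same direction in each library. Chodl (53.1%, 45.5% and 34.3% against 33.3%, 21.9% and 15%) and Ptx4 (57.1%, 47.8% and 29.7% against 21.9%, 16.7% and 18.4%) did. For Postn, a gene outside the rule, the shares were 58.7%, 50.0% and 38.5% against 28.6%, 13.3% and 8.33%. For Sfrp2 they were 38.9%, 41.7% and 17.6% against 45.7%, 34.4% and 25.9%. Deeper cells have more UMIs of every gene, so these shares are given with no test.

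The gated cells held 28.1%, 11.4% and 5.35% of all Itga8 UMIs of kept barcodes in replicates 1, 2 and 3. The gate with the highest Itga8 in replicate 1 was another one, the Myh11 Acta2 gate (at least 3 UMIs of the 2 smooth muscle genes), at 250.3 CPM in 57 cells (198 to 312 CPM), and there the intervals of the 2 gates do not overlap. In replicates 2 and 3 that gate held 22 and 19 cells at 2.01 and 0 CPM. Cells with 3 or more Acan UMIs were 0% of it in replicate 1 and 90.9% and 89.5% in replicates 2 and 3. It is therefore called by its rule, and its mean over libraries joins unlike cells. The Bglap-high gate (at least 10 UMIs of Bglap and Bglap2) was at 8.94, 2.34 and 5.50 CPM. In order of the mean over libraries, Itga8 was highest in the Myh11 Acta2 gate, at 84.1 ± 144 CPM, then in the Mfap4 Tnmd Scx gate, the Cxcl12-abundant gate (8.60 ± 3.56 CPM), the Bglap-high gate (5.60 ± 3.30 CPM), the Cd34 Igfbp6 gate (2.76 ± 2.73 CPM) and the Cilp-high gate (1.60 ± 0.367 CPM). The means of the first pair, and of each pair of neighbours among the last 4, differed by less than the larger of the 2 SDs.

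**Figure D4:**
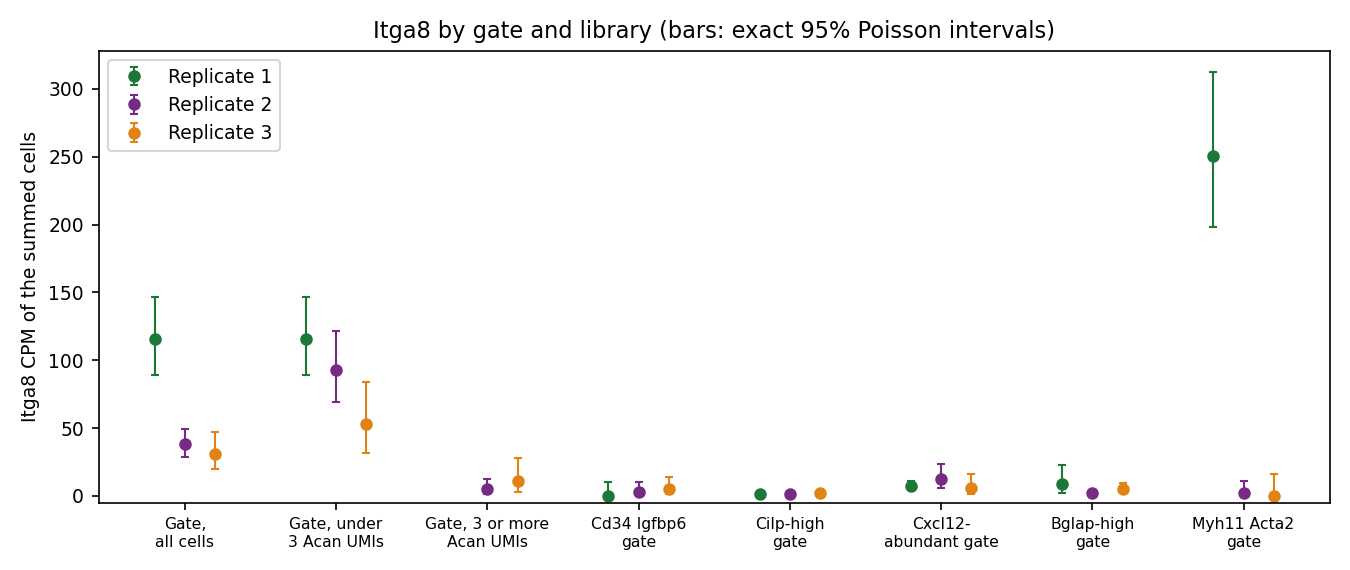
Itga8 level in CPM of the summed cells (linear scale) by gate and library. Points are libraries and bars exact 95% Poisson intervals, which cover counting error only. The gated cells with fewer than 3 Acan UMIs are at 115, 92.8 and 53.0 CPM, and the highest value, 250.3 CPM, is that of the Myh11 Acta2 gate in replicate 1.

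Genes whose levels were among the most like those of Itga8 over the 18 sums of 6 gates in 3 libraries were Amph (Pearson's r of log2 CPM + 10 of 0.957), Ntf3 (0.917), Mfsd6 (0.893), Sel1l3 (0.885), Lrrc75a (0.881), Jph4 (0.880) and Ankrd26 (0.876), out of 20885 genes. These genes are lowly expressed, at no more than 33.2 CPM in any library of the Mfap4 Tnmd Scx gate, and the sums share libraries and depth, so this describes these sums only. Ntf3, the neurotrophin 3 gene, was at 28.0, 16.8 and 14.2 CPM in the gated cells and at 93.1 CPM in the Myh11 Acta2 gate of replicate 1. Of the rule genes, Tnmd was closest to Itga8 with r of 0.680, and Kera was farthest with 0.523. The rules set these genes high in the Mfap4 Tnmd Scx gate and low in the others, so nothing is read from these values.

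Among themselves, the gated cells are described by Tnmd, the marker of mature tendon cells. Tnmd is a gene of the rule, and a cell without it could enter only by the other 5 genes, so differences between cells with and without it are given as levels and no test of a gene is read from them. In replicates 1, 2 and 3, 76, 88 and 81 cells had a Tnmd UMI and 12, 40 and 31 had none. Of the Tnmd-negative cells, 0 of 12, 31 of 40 (77.5%) and 17 of 31 (54.8%) had 3 or more Acan UMIs, against 0%, 23.9% and 24.7% of the Tnmd-positive cells, and their median depth was 5772.5, 15792 and 6110 UMIs against 6219, 7857.5 and 4984. A fit of these sums called 109 of 6376 genes (1.71%) higher and 56 (0.878%) lower in the Tnmd-positive cells. These 165 calls fell to 3 with no block for the library and to 50 without replicate 2, and rose to 652 without replicate 1. Without replicate 3, edgeR called 0 genes, with 711 at an unadjusted p under 0.05, and no other tool was run on those 2 libraries. Nothing about the cells is read from these counts.

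As a ratio of levels, Thbs4, Mkx and Sox9 differed more between the sets in replicates 2 and 3 than in replicate 1. As a difference in CPM, Thbs4 and Mkx differed most in replicate 1. Thbs4 was at 7404, 4255 and 3388 CPM in the Tnmd-positive cells and at 3155, 207 and 675 CPM in the Tnmd-negative cells. Mkx was at 247, 131 and 115 CPM against 98.2, 11.8 and 22.1 CPM. Sox9, the master factor of cartilage, was at 46.9, 334 and 545 CPM in the Tnmd-positive cells and at 98.2, 1408 and 1553 CPM in the others. For these 3 genes the Tnmd-positive value was on the same side in each library. Acan was at 2.04, 761 and 694 CPM against 0, 2582 and 1822 CPM, so replicate 1 did not share the difference seen in replicates 2 and 3.

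In replicate 1, where no gated cell had 3 or more Acan UMIs, the sets held 76 and 12 cells. Col22a1 was at 536 CPM in its Tnmd-positive cells and at 24.6 CPM in its Tnmd-negative cells, and at 287 and 188 CPM against 1.47 and 4.41 CPM in replicates 2 and 3. Mstn, coding for myostatin, a growth factor that acts on muscle and tendon, was at 208, 158 and 125 CPM against 24.6, 0 and 39.7 CPM. Both genes were lower in the Tnmd-negative cells of each library, where Col22a1 rests on 2, 1 and 1 UMIs. Mstn was at the same low level as Col22a1 in replicate 1. Both were among the genes called by the fit, so their direction is not independent evidence. Postn was at 823, 1183 and 831 CPM against 147, 119 and 287 CPM. Markers of other cell types differed as well: the fibroblast gene Fndc1 was at 515, 332 and 244 CPM against 159.6, 22.1 and 61.8 CPM, and the BMP antagonist gene Grem1 at 2.04, 4.95 and 18.8 CPM against 209, 35.3 and 44.1 CPM. Itga8 was at 124, 69.3 and 37.6 CPM in the Tnmd-positive cells and at 61.4, 1.47 and 17.6 CPM in the Tnmd-negative cells, from 5, 1 and 4 UMIs.

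**Figure D5:**
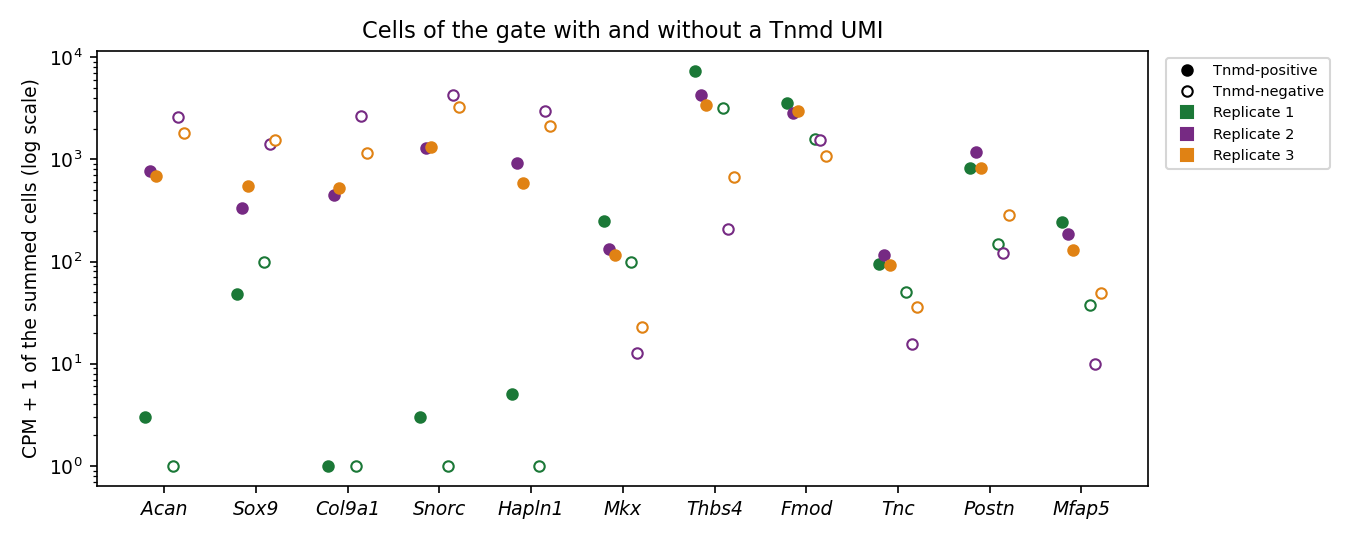
CPM + 1 of the summed cells (log scale) for 5 cartilage genes (left) and 6 tendon and microfibril genes (right) in gated cells with (filled) and without (open) a Tnmd UMI, by library. Sox9 is higher in the Tnmd-negative cells of all 3 libraries, and the other 4 cartilage genes are near 0 in replicate 1 in both sets.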

How the data were processed

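Droplet 3′ single-cell RNA-seq was measured in 3 libraries of Alcam+Sca-1- BLCs. The authors aligned reads to mm10 and made the deposited matrices of UMI counts per gene and barcode with Cell Ranger 7.1.0, per the labels. Depth was 20985636, 79905165 and 69890252 UMIs, which limits the precision for low genes. The members, gates and gene lists were chosen with earlier results of these data known.

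A barcode was dropped below 200 detected genes or above 20% of UMIs from mitochondrial genes. No clustering was used. Doublets were scored with scanpy 1.11.5 and kept, and their removal was an alternative. Counts were summed per gate and library and tested with edgeR 4.0.16 (R 4.3.3; TMM scaling, filterByExpr, quasi-likelihood test) in 1 fit over 4 gates, and in a second fit for Tnmd-positive against Tnmd-negative cells, whose calls are not read because Tnmd is in the rule. The libraries were a block because the gates came from the same libraries, and same-library deviations correlated at 0.34 to 0.50, 0.19 to 0.31 and 0.19 to 0.32 in replicates 1, 2 and 3. P-values were adjusted over all genes (Benjamini-Hochberg, threshold 0.05). Fits were tested on simulated data with the same spread for every gene, so nothing about the fit to these data is read from that. Genes were named from 19 lists, and otherwise as the 8 highest and 5 lowest called genes by fold change that changed alike in 3 libraries and had at least 100 CPM in the higher gate, leaving out genes of the gates, mitochondrial genes and gene models. Alternatives were RLE scaling, DESeq2 1.42.0, no filter on low counts, no block, each library left out, a sum of at least 5 UMIs, doublets removed, no cell filter and thinning to 1000 UMIs. A division of the members at 3 Acan UMIs was added after seeing the data. The matrices hold fewer barcodes than the cell total given by the study. E-boxes were searched in RefSeq promoters with Python 3.11.15. Some genes that the naming rules or lists would give are not reported here.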

Additional observations from a re-analysis of the deposited data

How the results depend on the processing

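The number of genes called moved with the libraries and the filter. Against the Cd34 Igfbp6 gate it was 290, and 824 with no filter on low counts, 164 with no replicate block, 467 with at least 5 UMIs of the rule genes, and 35 to 516 with a library left out. Against the Cilp-high gate it was 1603, 2406 with no filter and 783 to 1767 with a library left out, and against the Cxcl12-abundant gate 2310 and 1093 to 2812. For Tnmd-positive against Tnmd-negative cells it was 165, 108 with DESeq2, 488 with no filter, 3 with no replicate block, 428 with at least 5 UMIs (a fit on 4 sums), and 0 to 652 with a library left out. The share of gated cells with an Itga8 UMI fell from a mean of 29.1% to 6.98% at 1000 UMIs per cell, as thinning removes UMIs. Bglap2 turned from higher to -0.12 on the log2 scale against the Cxcl12-abundant gate with at least 5 UMIs. Where no cause is named, the cause was not tested. Scaling by RLE and keeping all barcodes left each count within 1.5 times the main one, as did removing doublets. With 3 libraries of 1 group, depth limits low genes such as Itga8, whose calls rest on 22 to 66 UMIs a library.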
